A study of Mus musculus with 8 samples.

Results

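Zfp608, Greb1l, Enpp2, Fam199x and Sh3bgrl are 5 of the 3160 genes in a table of ribosome-bound and total RNA of mouse pluripotent cells, chosen by their measured rises of total or ribosome-bound RNA, the largest in the table, between embryonic stem (ES) cells and epiblast-like aggregates (ELA). All 5 stood among the 7 highest rises of total RNA, and Greb1l, Zfp608 and Enpp2 were the 3 highest of ribosome-bound RNA. These rises are the selection itself, so they are described here without a test. The authors kept a gene only if its counts averaged at least 50 in 1 of the stages. On the deposited scale the mean of the 2 input libraries reached this in both stages for 2728 genes, in ELA alone for 216 and in ES alone for 216, and all 5 genes were among the 216 that reached it in ELA alone. A gene that entered in this way had to be higher in ELA, and of those 216 genes 207 were called higher in total RNA and 0 lower. The cells were E14Tg2A, an established ES cell line of the 129/Ola strain. ES cells at 0 days in vitro grew attached to gelatin in medium with serum and leukaemia inhibitory factor (LIF). ELA were the same line after 2 days in vitro as floating clumps in a chemically defined minimal medium with N2 and B27 supplements, without serum or LIF. Attachment, serum and LIF therefore changed together and cannot be told apart. In both stages ribosomes were stalled with cycloheximide, part of the lysate was kept as input (total RNA), and the rest was incubated with an antibody against the ribosomal protein Rpl10a to recover ribosomes with their RNA (Rpl10a-IP). Each stage thus had an input and an Rpl10a-IP group, and by the sample titles each of these 4 groups held 2 libraries. The source label of the second input library of each stage repeats replicate 1, against its title, and the title was followed. Nothing in the labels said that the replicates came from separate cultures, so every SD and p-value measures the spread between these libraries, which may be technical. Control precipitations with an anti-GFP antibody were not analysed here.

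The libraries differed 147-fold in depth over the genes of the table. ELA input held 159587 and 410192 reads, with medians of 26 and 66 reads per gene, against 3898414 to 5380139 reads in ES input and 16076207 to 23483388 in the Rpl10a-IP libraries. ELA input replicate 1 is the library that the study's methods left out for low quality, and the changes of the 5 genes that rest on it are given with and without it. Of the 46 other genes of the lists and chromosome neighbours described here, 37 were called for total RNA, and all 37 kept their call and direction without this library. Of the naive pluripotency markers, 10 of 22 were in the table and all 10 fell in total and in ribosome-bound RNA, where 35.8% and 42.3% of all genes were lower. Fgf4 and Socs3 had entered the table through ES alone, and the other 8 through both stages, among them Nanog (log2 change of total RNA -2.90, SE 0.12, limma adjusted p = 2.02e-21). Of the primed epiblast markers, 5 of 20 were in the table and 4 rose in total RNA, where 34.5% of all genes were higher. Zic5 had entered through ELA alone, and the largest change among the other 4 was that of the DNA methyltransferase Dnmt3b (log2 change 2.62, SE 0.10, adjusted p = 4.55e-22), a gene the study itself followed. Of markers of other lineages, 0 of 6 mesoderm and 0 of 7 trophectoderm genes were in the table, and the early neural list was represented by Nes alone, whose total RNA rose by a log2 change of 2.51 (SE 0.12, adjusted p = 7.22e-19). In these bulk samples, more cells that express a gene and more RNA per cell cannot be told apart.

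The 5 genes belong to unrelated families. Enpp2 encodes autotaxin, a secreted enzyme that makes the signalling lipid lysophosphatidic acid, which acts on cell-surface receptors coupled to G proteins. Greb1l is the paralogue of Greb1, a gene known for its response to oestrogen, and its loss in humans and mice disturbs kidney development. Zfp608 is a zinc-finger protein related to Zfp609, which is known to work with the cohesin loader Nipbl and the Integrator complex. Sh3bgrl is a small protein of the SH3-binding glutamic-acid-rich family, whose fold resembles thioredoxin. Fam199x is little characterised. Ribosome affinity purification recovers the RNA that ribosomes carry, and the ratio of Rpl10a-IP to input is used as an estimate of how much of a gene's RNA is on ribosomes.

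Promoters were taken from RefSeq for mouse build GRCm38.p6, which is the mm10 build of the deposited data. Of the 5 genes, only Fam199x and Sh3bgrl, both on the X chromosome, had their promoters examined here. These 2 promoters contrast in base composition. Each stretch is the 250 bases before the annotated start, 5′ to 3′ on the plus strand, with motif matches in capitals.
Fam199x chrX:137049344-137049593: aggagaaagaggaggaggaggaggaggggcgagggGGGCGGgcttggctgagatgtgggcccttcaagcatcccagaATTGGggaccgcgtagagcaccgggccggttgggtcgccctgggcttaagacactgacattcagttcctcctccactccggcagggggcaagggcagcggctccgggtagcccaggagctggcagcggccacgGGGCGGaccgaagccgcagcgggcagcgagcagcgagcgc
Sh3bgrl chrX:109095157-109095406: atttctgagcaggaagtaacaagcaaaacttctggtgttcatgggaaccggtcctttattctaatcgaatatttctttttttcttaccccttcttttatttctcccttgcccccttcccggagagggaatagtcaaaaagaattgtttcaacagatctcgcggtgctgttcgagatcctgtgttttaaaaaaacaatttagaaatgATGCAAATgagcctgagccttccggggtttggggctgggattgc
The Fam199x promoter was 69.2% G or C with 19 CG dinucleotides, and the Sh3bgrl promoter was 42.4% G or C with 7. The medians were 61.6% and 18 over 3145 promoters of genes in the table, and 52.4% and 6 over all 32851 promoters of the same length.

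In the Fam199x promoter the capitals mark the GC box GGGCGG, which is the binding letters of Sp-family factors, at 215 to 210 and again at 40 to 35 bases before the start, and a CCAAT box on the opposite strand (printed ATTGG) at 173 to 169 bases. In the Sh3bgrl promoter they mark the octamer ATGCAAAT, the motif of POU-domain factors, at 44 to 37 bases before the start. The octamer was found in 1.60% of all promoters and in 1.02% of those of genes in the table. The GC box was in 32.7% and 63.5%, and CCAAT in 33.8% and 35.8%. Both strands were searched, also for the OTX2-type motif TAATCC, the core promoter box TATAAA, the cAMP response element TGACGTCA, the E-box CACGTG, the TEAD motif GGAATG and the TCF/LEF core CTTTGAA, with no match in these windows. No searched motif lay across another in these windows. A match describes letters and is not a measured binding site.

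Total RNA of all 5 genes was low in both ES input libraries and 10.3 to 17.2 times higher on average in the ELA input libraries. Values are normalised counts, that is reads divided by 1 scaling factor per library (trimmed mean of M-values, TMM). Zfp608 measured 122 and 92.1 in the ES input replicates and 1930 and 1760 in the ELA input replicates. Fam199x measured 65.5 and 77.2 in ES input, then 1060 and 1251 in ELA input. Sh3bgrl measured 178 and 187 in ES input, then 2039 and 2788 in ELA input. In each of these genes, chosen for large rises, every ELA input library lay far above every ES input library.

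Greb1l had normalised counts of 115 and 113 in ES input and of 1305 and 1304 in ELA input. Enpp2 had 80.01 and 81.8 in ES input and 734 and 975 in ELA input. The groups did not overlap in either gene, both chosen for large rises. The ELA values of Enpp2 rest on only 27 and 92 reads. The exact Poisson 95% interval of the 27 reads runs from 17.8 to 39.3 reads, or from 484 to 1068 on the normalised scale, which is far above both ES input values. Intervals cover counting error only. Reads in the ELA input libraries ranged from 27 to 75 per gene in replicate 1 and from 92 to 263 in replicate 2.

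On the log2(normalised count + 1) scale, total RNA rose by 4.11 (SE 0.13) for Zfp608, the highest of the 3160 genes. Fam199x rose by 4.00 (SE 0.14), Sh3bgrl by 3.70 (SE 0.13), Greb1l by 3.51 (SE 0.12) and Enpp2 by 3.37 (SE 0.14), at ranks 2, 3, 6 and 7. As folds these are 17.2, 16.0, 13.0, 11.4 and 10.3, beside a median log2 change of -0.02 over all genes. Just outside the chosen genes stood Prickle1, a planar cell polarity gene, at 3.67 (SE 0.13), and Sema6a, a semaphorin, at 3.64 (SE 0.12), at ranks 4 and 5, and Pim2, a protein kinase, at 3.36 (SE 0.11) at rank 8. The gap from Enpp2 to Pim2 was smaller than either SE, and 13 genes in all rose by more than 3. At an adjusted p under 0.05, 34.5% of all genes were higher in ELA and 35.8% lower, and the 5 genes were among the former by selection. This split moved with the scaling, from 1089 up and 1130 down here to 934 and 1307 under the deposited size factors and to 1182 and 1027 under total reads.

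Each rise was also present with either ELA input library left out. Without ELA input replicate 1 the log2 change of total RNA was 4.04 for Zfp608, 4.12 for Fam199x, 3.93 for Sh3bgrl, 3.51 for Greb1l and 3.58 for Enpp2. With replicate 1 as the only ELA input library it was 4.18, 3.88, 3.48, 3.51 and 3.17 in the same order. Enpp2 then ranked 14 and Sh3bgrl 7. Without ELA input replicate 1, and also without ES input replicate 2, Fam199x ranked 1 and Zfp608 ranked 2.

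**Figure D1:**
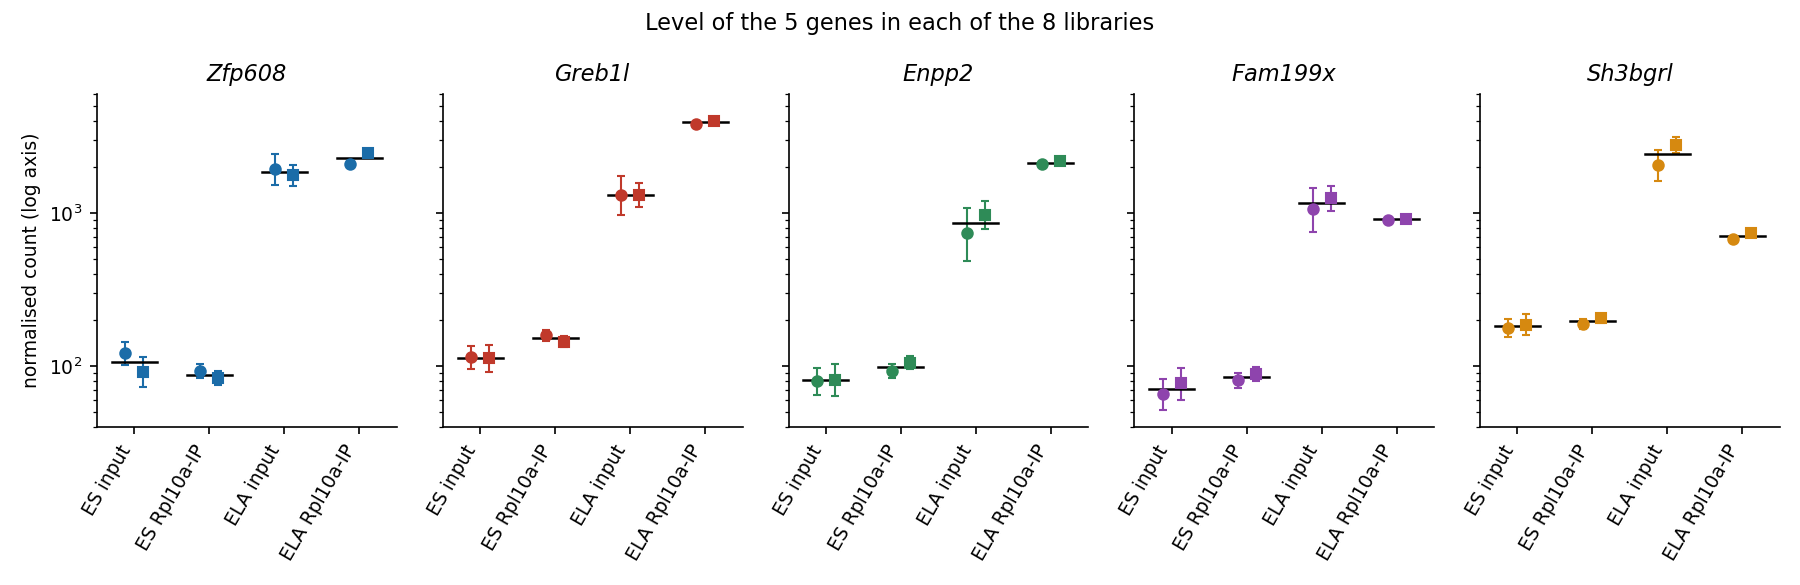
Normalised count (log axis) of Zfp608, Greb1l, Enpp2, Fam199x and Sh3bgrl in the 8 libraries, with circles for replicate 1, squares for replicate 2, vertical bars for the exact Poisson 95% interval of the reads and horizontal lines for group means (n = 2). Every ELA library lies above every ES library for all 5 genes, which were chosen for large rises. In ELA the Rpl10a-IP libraries lie above input for Greb1l and Enpp2 and below it for Sh3bgrl.

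Ribosome-bound RNA separated the 5 genes, because Greb1l, Zfp608 and Enpp2 rose by 21.2-fold to 25.5-fold while Sh3bgrl rose by 3.60-fold. Greb1l had normalised counts of 159 and 144 in ES Rpl10a-IP and of 3804 and 3960 in ELA Rpl10a-IP, a log2 change of 4.67 (SE 0.10) or 25.5-fold. Zfp608 had 92.8 and 83.6 in ES and 2078 and 2455 in ELA, a change of 4.66 (SE 0.11) or 25.4-fold. Enpp2 had 93.1 and 105 in ES and 2083 and 2163 in ELA, a change of 4.41 (SE 0.11) or 21.2-fold. These ranked 1, 2 and 3, and the first pair differed by less than its SE.

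Fam199x had normalised counts of 81.0 and 89.1 in ES Rpl10a-IP and of 903 and 912 in ELA Rpl10a-IP, a log2 change of 3.40 (SE 0.12) or 10.6-fold at rank 13. Sh3bgrl had 188 and 205 in ES and 678 and 741 in ELA, a change of 1.85 (SE 0.11) or 3.60-fold at rank 128. Neither gene had overlapping stages, and the share of all genes without overlap was not counted. These libraries are deep, with 321 to 19165 reads for each of the 5 genes, so counting error is small beside the changes. The genes ranked just below Enpp2 were Trio, a guanine nucleotide exchange factor, at 4.17 (SE 0.09), Adamts15, a secreted metalloprotease, at 4.11 (SE 0.18), and the tyrosine phosphatase Ptpn13 at 4.08 (SE 0.09). The median over all genes was -0.02, 41.1% of genes were called higher and 42.3% lower, and 25 genes rose by more than 3.

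**Figure D2:**
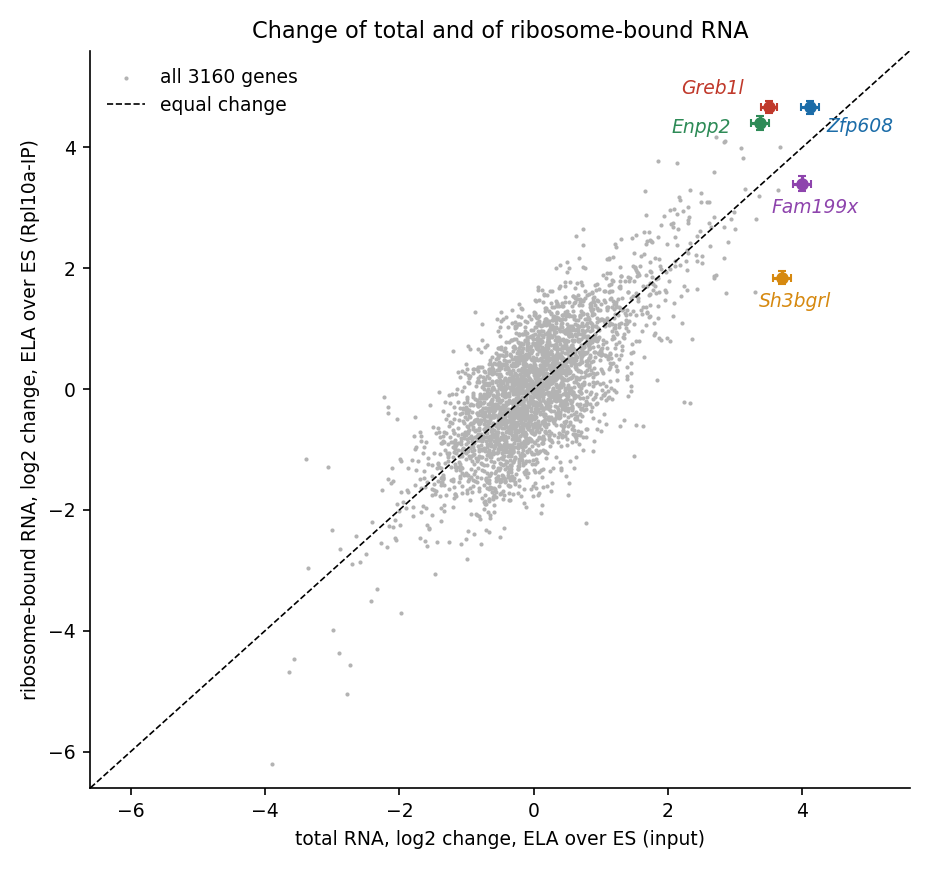
Log2 change from ES to ELA of total RNA (input, horizontal) and of ribosome-bound RNA (Rpl10a-IP, vertical) for all 3160 genes in grey, with the 5 genes in colour and bars of 1 SE; the dashed line marks equal change. Greb1l, Zfp608 and Enpp2 sit above the line at 4.41 to 4.67 on the vertical axis, and Fam199x and Sh3bgrl sit below it at 3.40 and 1.85.

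The Rpl10a-IP to input ratio was near 1 for all 5 genes in ES and spread widely in ELA. For Greb1l the 2 same-numbered ratios were 1.38 and 1.28 in ES and 2.92 and 3.04 in ELA, with means of 1.33 ± 0.0756 and 2.98 ± 0.0864 (SD, n = 2). For Enpp2 they were 1.16 and 1.29 in ES and 2.84 and 2.22 in ELA, with means of 1.23 ± 0.0897 and 2.53 ± 0.438 (SD, n = 2). Both ELA means lay above the 95% quantile of all genes, which was 2.38 in ELA. For Enpp2 this rests on ELA input replicate 1, since the ratio of replicate 2, at 2.22, lay below that quantile, and without replicate 1 its log2 ELA enrichment went from 1.33 to 1.12, at rank 224. The ratios pair libraries by their number, and the labels do not state that a number marks 1 lysate. In ES that quantile was 1.34, just above the mean of Greb1l. Scaling kept the median ratio of all genes at 0.989 in ES and 0.993 in ELA, so a ratio places a gene against the others. The study's methods state that scaling of this kind cannot show a general change of translation.

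Sh3bgrl went the other way. Its ratios were 1.06 and 1.10 in ES and 0.333 and 0.266 in ELA, with means of 1.08 ± 0.0317 and 0.299 ± 0.0474 (SD, n = 2), below the 5% quantile of all genes in ELA of 0.371. Fam199x had ratios of 1.24 and 1.15 in ES and of 0.851 and 0.729 in ELA, both stages within the middle 90% of genes. Zfp608 had 0.762 and 0.907 in ES and 1.08 and 1.40 in ELA, also within that range. In none of the 5 genes did the ES and ELA ratios overlap. Over all genes the share without overlap was not counted, and the change of this ratio was called higher for 28.4% and lower for 27.7%.

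The change of ribosome enrichment between the stages, on the log2 scale, was 1.16 (SE 0.17) for Greb1l, 1.04 (SE 0.19) for Enpp2 and 0.56 (SE 0.19) for Zfp608. It was -0.60 (SE 0.19) for Fam199x and -1.86 (SE 0.19) for Sh3bgrl, which ranked 3141 of 3160 from the top. Over all genes the median was 0.01, with 28.4% of genes called higher and 27.7% lower. The ELA input libraries enter both the rise of total RNA and this change with opposite signs, so the 2 values of a gene are not independent and no test is given. Without ELA input replicate 1 the change of enrichment was 1.16 for Greb1l, 0.83 for Enpp2, 0.62 for Zfp608, -0.72 for Fam199x and -2.08 for Sh3bgrl. When 1 library was left out, the value of Zfp608 depended most on ES input. It was 0.36 at rank 956 without ES input replicate 1 and 0.76 at rank 436 without replicate 2.

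**Figure D3:**
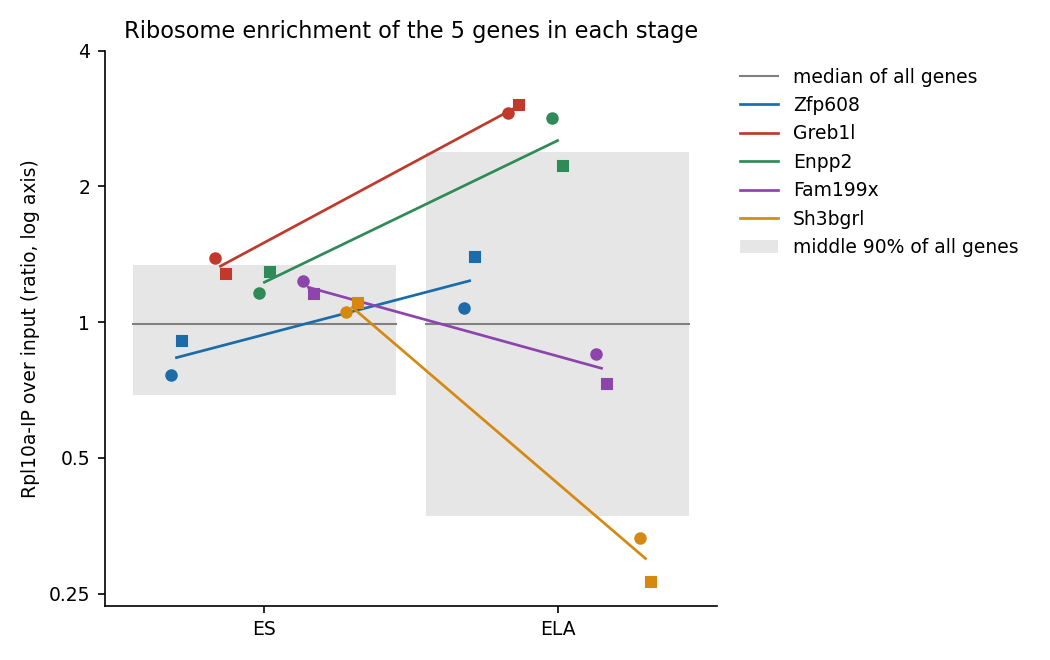
Ratio of Rpl10a-IP to input normalised counts (log axis) of the 5 genes in ES and in ELA, with circles for replicate 1, squares for replicate 2, lines joining the means, grey boxes for the middle 90% of all 3160 genes and grey lines for their medians (0.989 in ES and 0.993 in ELA). Greb1l and Enpp2 rise to 2.98 and 2.53, and Sh3bgrl falls to 0.299, below the grey box.

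Levels between genes were compared per kb of transcript, as normalised counts divided by the length of 1 annotated transcript per gene. In ES input the order was Sh3bgrl at 63.2 ± 2.13, Enpp2 at 23.8 ± 0.366, Zfp608 at 17.5 ± 3.42, Greb1l at 13.5 ± 0.172 and Fam199x at 8.60 ± 0.990 per kb (SD, n = 2). In ELA input it was Sh3bgrl at 837 ± 184, Zfp608 at 302 ± 19.7, Enpp2 at 252 ± 50.2, Greb1l at 155 ± 0.0989 and Fam199x at 139 ± 16.2 per kb (SD, n = 2). Sh3bgrl was thus the most abundant of the 5 in total RNA in both stages. In ELA input, Zfp608 and Enpp2 differed by no more than the sum of their SDs, as did Greb1l and Fam199x.

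In ES Rpl10a-IP the order per kb was Sh3bgrl at 68.2 ± 4.30, Enpp2 at 29.2 ± 2.58, Greb1l at 18.0 ± 1.25, Zfp608 at 14.4 ± 1.07 and Fam199x at 10.2 ± 0.694 (SD, n = 2). In ELA Rpl10a-IP it was Enpp2 at 625 ± 16.7, Greb1l at 461 ± 13.1, Zfp608 at 371 ± 43.7, Sh3bgrl at 246 ± 15.2 and Fam199x at 109 ± 0.816 per kb (SD, n = 2), with every neighbouring pair apart by more than the sum of its SDs. Sh3bgrl moved from the first place to the fourth among ribosome-bound RNAs. Within each library, the normalised counts of the 5 genes, not divided by length, lay above only 0.538% to 10.6% of genes in ES and above 49.4% to 92.3% in ELA.

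The 5 genes did not share a transcript structure. Greb1l (8414 bases) and Zfp608 (6112) have long coding regions of 5742 and 4536 bases, against medians over 2979 genes of 3698 bases of transcript and 1632 of coding region. The transcript of Enpp2, at 3398 bases with 2745 coding, lies near the median in length. Fam199x has 6853 of its 8299 bases in the 3′ untranslated region, longer than in 98.6% of genes, and Sh3bgrl codes for its small protein in 345 bases, with 2.52% of genes shorter. The transcripts of Fam199x and Sh3bgrl are 38.4% and 36.6% G or C, with only 2.15% and 0.537% of genes below, whereas Zfp608, Greb1l and Enpp2 are at 48.9%, 47.6% and 45.1%, near the median of 48.0%.

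A fit that removed each library's trend with transcript length and G and C content, with the replicate number as a block, moved several values of these genes. The log2 rise of total RNA of Fam199x went from 4.00 to 3.24 and its rise of ribosome-bound RNA from 3.40 to 2.41. The rise of total RNA of Sh3bgrl went from 3.70 to 3.28. In total RNA Greb1l, Sh3bgrl and Fam199x then ranked 8, 9 and 10 of 2979. The rise of ribosome-bound RNA of Greb1l went from 4.67 to 4.02 and its ELA enrichment from 1.57 to 0.95. Its change of enrichment went from 1.16 at rank 110 to 0.65 (SE 0.16) at rank 381 of 2979, while that of Enpp2 went from 1.04 at rank 173 to 1.17 at rank 48. The change of enrichment of Sh3bgrl went from -1.86 to -1.21. That of Zfp608 went from 0.56 to 0.17 (SE 0.16), about 1 SE from 0. Under the same fit the ELA enrichment of Zfp608 turned from 0.29 to -0.11 and the ES enrichment of Sh3bgrl from 0.11 to -0.10.

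In GRCm38.p6 coordinates, Zfp608 lies on chromosome 18 from 54888045 to 54992591 and Greb1l on the same chromosome from 10324933 to 10562945. Enpp2 spans chromosome 15 from 54838901 to 54952789, Fam199x spans X from 137049594 to 137082503 and Sh3bgrl spans X from 109095407 to 109162467. Of 3019 table genes with a RefSeq position, 109 (3.61%) were on X and 101 (3.35%) on chromosome 18. The nearest table genes on each side were compared, since they were not used to choose the 5. They are nearest only among the genes of the table. Csnk1g3 and Aldh7a1 lay 932 and 1532 kb from Zfp608, and Ext1 lay 1493 kb from Enpp2. Morf4l2 and Trap1a lay 306 and 2251 kb from Fam199x, and Rps6ka6 lay 2225 kb from Sh3bgrl.

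Greb1l had a neighbour that rose on each side. Rock1, a protein kinase gene 143 kb away, rose by 1.32 in total RNA (SE 0.12, limma adjusted p = 5.77e-12) and by 1.32 in ribosome-bound RNA (SE 0.09, adjusted p = 1.44e-46). Esco1, a cohesin acetyltransferase 3.56 kb from the end of Greb1l, rose by 0.86 (SE 0.13, adjusted p = 8.32e-07) and 0.97 (SE 0.10, adjusted p = 4.34e-21). The strand used in counting is not given in the sources used here, and whether this close pair shared reads was not tested. Near Zfp608, the casein kinase gene Csnk1g3 rose by 1.00 in total RNA (SE 0.12, adjusted p = 5.46e-09) and Aldh7a1 fell by 0.32 on the log2 scale (SE 0.14, adjusted p = 0.0365), a call lost when libraries were weighted by group (adjusted p = 0.0743), with total reads as scaling (-0.26) and without ES input replicate 1 (-0.12).

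Near Enpp2, the transcription factor subunit Taf2, 62.3 kb away, rose by 0.46 in total RNA (SE 0.11, adjusted p = 0.000395), and Ext1 had a change of -0.05 (SE 0.12, adjusted p = 0.697). Near Fam199x, Trap1a fell by 1.56 on the log2 scale in total RNA (SE 0.12, adjusted p = 2.10e-13), and Morf4l2 had a total RNA change of -0.23 (SE 0.11, adjusted p = 0.0548) while its ribosome-bound RNA fell by 1.19 (SE 0.09, adjusted p = 5.62e-40). Near Sh3bgrl, the lysophosphatidic acid receptor gene Lpar4, 2162 kb away, had a change of 2.89 (SE 0.13), given without a test because it entered the table through ELA alone, and Rps6ka6 rose by 0.55 (SE 0.10, adjusted p = 2.00e-05), a call lost with the length and composition correction (0.20). Changes of neighbours in total RNA went both ways. That they were smaller than those of the 5 genes largely follows from the choice of the 5.

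Likeness of pattern was measured as the root mean square difference of log2(normalised count + 1) over the 8 libraries after each gene's own mean was subtracted. Greb1l and Enpp2 were each other's nearest gene of all 3160, at 0.191, where the median distance to all genes was 2.15 from Greb1l and 2.04 from Enpp2. Both were chosen for large rises over these libraries, so closeness to each other and distance from most genes follow in part from the choice. Ptpn13 (0.349 and 0.262) and Trio (0.377 and 0.334) followed for both. The genes nearest Zfp608 were Prickle1 (0.324), Greb1 (0.467) and Fam199x (0.493). Those nearest Fam199x were Sema6a (0.234), Prickle1 (0.279) and Pim2 (0.303).

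Sh3bgrl had no close partner among the other 4, at 0.685 from Fam199x and 1.36 from Greb1l. Its nearest genes were the chromatin-silencing factor Pphln1 (0.366), the redox gene Fam213a (0.380) and the neurexin Nrxn2 (0.383), which share the shape of a high ELA input and a lower ELA Rpl10a-IP. Nrxn2 rests on 11 and 20 reads in ELA input and Fam213a on 18 and 63. These distances are a description over 8 libraries in 4 groups.

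**Figure D4:**
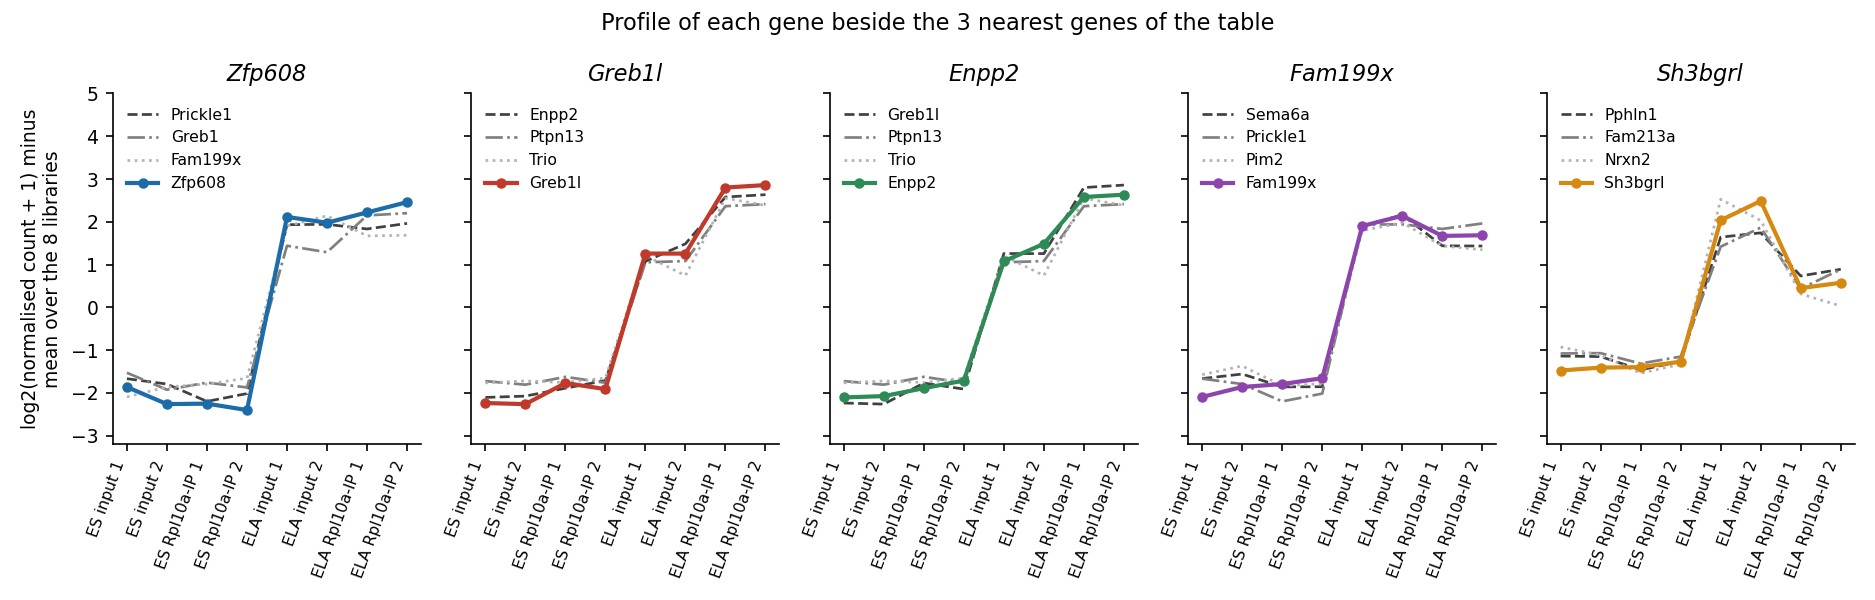
Log2(normalised count + 1) minus the gene's mean over the 8 libraries, for each of the 5 genes (coloured, with points) and its 3 nearest genes of the table (grey lines), with libraries along the horizontal axis. Greb1l and Enpp2 step up again from ELA input to ELA Rpl10a-IP, Fam199x steps down slightly, and Sh3bgrl steps down most.

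Of 9 relatives of the 5 genes, 4 were in the table. The paralogue Greb1 had mean normalised counts of 38.8 in ES input and 336 in ELA input, and of 36.1 in ES Rpl10a-IP and 589 in ELA Rpl10a-IP. Its log2 change was 3.09 in total RNA (SE 0.16) and 3.99 in ribosome-bound RNA (SE 0.15), given without a test because Greb1 entered the table through ELA alone. Its ELA input values rest on 13 and 30 reads, and its change of total RNA was 3.02 without replicate 1. Zfp609, the relative of Zfp608, rose by 0.66 in total RNA (SE 0.11, limma adjusted p = 4.16e-06) and by 0.93 in ribosome-bound RNA (SE 0.10, adjusted p = 3.19e-21), with normalised counts of 814 in ES input and 1283 in ELA input. Its call in ribosome-bound RNA was lost (0.17) under the fit that removed trends with length and G and C content.

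Sh3bgrl2, of the Sh3bgrl family, rose by 0.70 in total RNA (SE 0.14, adjusted p = 6.07e-05) and fell by 0.33 on the log2 scale in ribosome-bound RNA (SE 0.12, adjusted p = 0.00659), a call lost under the same fit (-0.18) and without ES Rpl10a-IP replicate 2 (-0.32). Its enrichment fell by 1.03 on the log2 scale (SE 0.20, adjusted p = 6.59e-05), the direction seen for Sh3bgrl. Enpp3, an ectonucleotidase related to Enpp2, had a total RNA change of -0.03 (SE 0.11, adjusted p = 0.794) and rose by 0.89 in ribosome-bound RNA (SE 0.09, adjusted p = 2.71e-20). The direction of its total RNA changed with the scaling.

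Of 16 genes for receptors of lysophosphatidic acid, the G proteins they couple to and the phosphatases that degrade it, 5 were in the table. Both receptors among them, Lpar4 and Lpar2, entered the table through ELA alone, so they are described without a test. Lpar4 had 101 ± 2.79 normalised counts in ES input and 755 ± 47.8 in ELA input (SD, n = 2), a log2 change of 2.89 (SE 0.13), and its change in ribosome-bound RNA was 2.44 (SE 0.12). Lpar2 had a change of total RNA of 1.86 (SE 0.16). Of the 3 that entered through both stages, 1 rose and 1 fell in total RNA, near the shares of all genes (34.5% and 35.8%). The G protein Gnaq rose by 1.52 (SE 0.13, adjusted p = 1.12e-12), and Gna13 fell by 0.32 on the log2 scale (SE 0.11, adjusted p = 0.0101), a call lost without ES input replicate 2 (-0.28). In ribosome enrichment Gnaq alone of these 3 passed the test and fell by 0.72 on the log2 scale (SE 0.18, adjusted p = 0.000975), where 27.7% of all genes fell.

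Of 15 genes for Nipbl and the Integrator complex, the partners known for Zfp609, 8 were in the table, all of them Integrator subunits. In total RNA 1 rose and 3 fell, where 34.5% of all genes rose and 35.8% fell. In ribosome-bound RNA 5 rose and 0 fell, where 41.1% and 42.3% of all genes did. All 8 rose in ribosome enrichment, as 28.4% of all genes did. Of the 3 that fell in total RNA, Ints5 entered the table through ES alone. The median change of enrichment was 0.77, beside 0.01 over all genes. The direction held for every subunit in each alternative that included it. The filter of at least 10 reads in each library held 6 of the 8, and the length and composition correction held 7. Without ELA Rpl10a-IP replicate 1 only 5 of the 8 kept their call, and without ES input replicate 1 only 6. Ints3, Ints4 and Ints5 were the subunits that lost it in some alternative. Ints2 had the largest change of enrichment, at 1.06 (SE 0.18, adjusted p = 5.99e-06), with a ribosome-bound rise of 1.37 (SE 0.10, adjusted p = 2.75e-45). Without ELA input replicate 1 its change of enrichment was 0.86, below the 0.94 of Ints10. Ints2 was also the 1 that rose in total RNA, by 0.31, a call lost with the deposited size factors (0.21), without ES input replicate 1 (0.21), without ELA input replicate 2 (0.11), with libraries weighted by group, and with the length and composition correction (0.04). Ints10 was called lower in total RNA with the deposited size factors (-0.28) and without ELA input replicate 1 (-0.32), beside -0.19 with all libraries. Of 18 genes of the retinoic acid pathway, with which Greb1l has been linked, the receptor Rarg alone was in the table, and its total RNA fell by 1.51 on the log2 scale (SE 0.12, adjusted p = 3.51e-13).

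Markers of other cell types that the aggregates could hold were set beside the 5 genes. Of 14 markers of primitive and visceral endoderm, the defining transcription factors Gata4, Gata6 and Sox17 were not among the genes of the table, and the 2 that were, Lrp2 and Lama1, had log2 changes of total RNA of 0.73 (SE 0.10, adjusted p = 1.66e-07) and -0.80 (SE 0.12, adjusted p = 4.53e-07). In ribosome-bound RNA Lrp2 rose by 2.65 (SE 0.09, adjusted p = 2.62e-187). Lama1 had a ribosome-bound change of 0.21 (SE 0.10, adjusted p = 0.0458), a call lost with the deposited size factors (0.10), with total reads as scaling (0.18), with all 8 libraries in the fit (0.21), without ES Rpl10a-IP replicate 1 (0.21) or replicate 2 (0.22) and without ELA Rpl10a-IP replicate 1 (0.18), and it became -0.74 with the length and composition correction. Of 6 fibroblast markers, Vim alone was in the table and its total RNA fell by 0.90 on the log2 scale (SE 0.12, adjusted p = 4.73e-08). The part of other cell types in the rises of the 5 genes was not tested.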

How the data were processed

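Input and Rpl10a-IP RNA were sequenced from 8 libraries. Per the methods and the labels, the authors mapped reads to mm10 with TopHat2, counted them per gene with htseq-count and divided the counts by DESeq2 size factors; the deposited values are these normalised counts, a signal rather than counts. Every value was a whole number of reads times 1 constant per library (tolerance 0.001, 100% of values). Per the methods, the authors kept genes with an average of at least 50 counts in 1 stage and a small SD between replicates; in the table the larger mean input was at least 50.02 and the largest SD of the replicate ratios 0.1998 of their mean. Such a filter makes p-values too small. Their 26 other columns, with means, SDs, each ratio and its fold change, and the log2 fold change, were not used, and 0 per-sample columns belonged to no sample. TMM factors were recomputed over the 8 libraries (trims 30% and 5%), since the deposited size factors were set within each fraction. limma (version 3.58.1, R 4.3.3; lmFit, eBayes with a trended prior) was fitted to log2(normalised count + 1) with 4 group coefficients and Benjamini-Hochberg adjustment (threshold 0.05). Log2 changes on this scale understate changes of low genes. Total RNA change, ELA enrichment and change of enrichment used 8 libraries. Ribosome-bound RNA change and ES enrichment used 7, without ELA input replicate 1. The fit shares 1 spread over all libraries, and ELA input is far shallower than the rest, so p-values that use ELA input are too small. The named genes were the 5 genes, the 3 nearest in pattern to each, the neighbours on the chromosome, the 3 ranked just below, and up to 4 genes with the largest change per list. A further list is not reported here. The genes and lists were chosen with earlier results of these data known. Lengths and G and C content came from GENCODE transcripts of another build, found for 2979 genes (94.3%).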

Additional observations from a re-analysis of the deposited data

Results flagged for a closer look

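Fam199x and Sh3bgrl had higher normalised counts in Rpl10a-IP than in input in every ES library pair and lower ones in every ELA pair. The ES side of both is small. These counts place a gene against the others and are not absolute amounts of RNA. For Fam199x the mean ratio was 1.19 in ES and 0.79 in ELA, and for Sh3bgrl it was 1.08 in ES and 0.299 in ELA. The difference was not tested, because both genes were chosen from these libraries. For Fam199x, 77.2 in ES input replicate 2 and 81.0 in ES Rpl10a-IP replicate 1 lie within counting error of each other. For Sh3bgrl, 187 in ES input replicate 2 and 188 in ES Rpl10a-IP replicate 1 do so too, and its log2 ES enrichment of 0.11 (SE 0.11) became -0.10 with the replicate block and the length and composition correction.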

How the results depend on the processing

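The alternatives were another scaling (deposited size factors, total reads, median of ratios), a pseudocount of 10, a filter of at least 10 reads in each library (chosen after seeing the data, because the planned filter removed no gene), the other set of libraries, leaving out each library, library weights by group (limma arrayWeights, chosen after seeing the data), a replicate block, and that block with a correction for transcript length and G and C content. The planned edgeR test was not run, and the deposited size factors were not applied to enrichment within a stage. Of 335 recomputed values of the 5 genes, 312 moved by less than the spread, 21 moved further and 2 changed sign, both under the block with the length and composition correction: the ELA enrichment of Zfp608 became -0.11 and the ES enrichment of Sh3bgrl -0.10. The rises of total RNA of the 5 genes ranged from 3.17 to 4.31 over these alternatives, and those of ribosome-bound RNA between 1.74 and 4.79. The deposited size factors moved the median of all genes from -0.02 to -0.14 in ribosome-bound RNA and to -0.12 in total RNA.

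The count of genes called for ribosome enrichment in ES fell from 1247 to 762 with all 8 libraries and ranged from 722 to 1121 when 1 library was left out. Of 852 recomputed values given for listed and neighbouring genes, 814 kept their side of the threshold and direction. Over all 46 of these genes, values called at first stayed called in the same direction in 466 of 476 cases for total RNA, 487 of 505 for ribosome-bound RNA and 447 of 489 for the change of enrichment, with 2 reversals, Lama1 and Grhl2 (0.23 to -0.21) in ribosome-bound RNA. The split of calls for the change of enrichment went from 899 higher and 876 lower to 743 and 985 with total reads, and that for ribosome-bound RNA from 1298 and 1338 to 1147 and 1463 with the deposited size factors. Enpp3 in total RNA became 0.028 with total reads, 0.0037 without ES input replicate 1, 0.068 without ELA input replicate 2 and 0.15 under the block with the correction. Ints8 in total RNA became 0.048 with total reads and ranged from -0.060 to 0.032 when 1 library was left out (0.023 without ES input replicate 1). Ext1 in total RNA became 0.0081 with total reads and ranged from -0.18 to 0.070 when 1 library was left out (0.0097 without ES input replicate 1), and Morf4l2 became 0.10 under the block with the correction. Lama1 in ribosome-bound RNA went from 0.21 to -0.74 under the block with the correction. With library weights, 2034 genes were called for total RNA, 2154 for ELA enrichment and 1775 for its change. The causes were not tested.

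By the protocol each lysate gave an input and a precipitate, but the labels do not state that equal replicate numbers mark 1 lysate. The deviations of same-numbered input and Rpl10a-IP correlated at 0.17 in ES and 0.50 in ELA, and those of same-numbered libraries of the 2 stages at 0.15 and -0.02, so not every pair exceeded 0.1 and the fits without the block were kept. With the replicate block alone, 2299 genes were called for total RNA, 2650 for ribosome-bound RNA, 1320 for ES enrichment, 2414 for ELA enrichment and 1894 for its change, beside 2219, 2636, 1247, 2338 and 1775 without it, no count changing by over 1.5 times.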
